A study of Mus musculus with 8 samples.

Results

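The cytosolic factors of translation initiation and elongation were examined in the tibialis anterior (TA), a mostly fast-twitch muscle of the lower leg. They were taken as every gene of the count table whose symbol begins with Eif or Eef followed by a number, leaving out the 4 *Eif2ak* genes, which code for kinases that act on eIF2. This rule matched 62 rows, and *Eif3j1* and *Eif3j2*, which are near-identical copies, were added together, giving 61 factors of 16685 genes. The rule used names and no expression value. RNA from the TA of 4 wild-type (WT) and 4 C2-/- male mice aged 22 months was sequenced, all on the FVBN background, with 1 library per mouse. C2-/- mice lack *Mybpc2*, which codes for fast myosin binding protein-C of the sarcomere. In this line the allele carries a Neo cassette between LoxP sites in place of most of the gene, in every cell of the animal, so that the comparison is of mice that never had the protein and not of an acute loss in the muscle. The comparison asked how the aged fast muscle differs without this protein.

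Protein synthesis starts when eIF2, loaded with GTP and the initiator tRNA, joins the small ribosomal subunit together with eIF1, eIF1A, eIF3 and eIF5, and when eIF4F (the cap-binding eIF4E, the scaffold eIF4G and the helicase eIF4A) brings in the mRNA. The joined ribosome then elongates the chain with eEF1A, which delivers aminoacyl-tRNA, its exchange factors of the eEF1B complex, and eEF2, which moves the ribosome along the mRNA. Adult skeletal muscle is known for using eEF1A2, a second form of eEF1A that most other tissues lack, and the rate of translation in muscle is set largely by mTORC1 through the 4E-BP inhibitors of eIF4E and by phosphorylation of eIF2.

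Several factors come as related pairs, and the counts of each pair depend on how well short reads can be told apart. Stretches of the coding sequence of both forms of eEF1A and of both forms of the eIF2 gamma subunit are shown because the results below compare their levels. Bases that differ within a pair are in capitals, the sequences are from the GENCODE vM21 transcripts on GRCm38, and each runs 5′ to 3′ along the coding strand. The *Eef1a1* stretch lies at chr9:78479999-78480148 and the *Eef1a2* stretch at chr2:181152931-181153080, both on the minus strand and both within coding exon 3 of 7, from coding base 325 to 474. The *Eif2s3x* stretch lies at chrX:94196295-94196444 on the minus strand and the *Eif2s3y* stretch at chrY:1023302-1023451 on the plus strand, both within coding exon 11 of 12, from coding base 1183 to 1332.
Eef1a1: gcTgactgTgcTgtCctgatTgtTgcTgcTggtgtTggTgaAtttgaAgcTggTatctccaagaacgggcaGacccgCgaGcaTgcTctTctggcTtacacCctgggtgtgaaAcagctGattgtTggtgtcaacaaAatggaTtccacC
Eef1a2: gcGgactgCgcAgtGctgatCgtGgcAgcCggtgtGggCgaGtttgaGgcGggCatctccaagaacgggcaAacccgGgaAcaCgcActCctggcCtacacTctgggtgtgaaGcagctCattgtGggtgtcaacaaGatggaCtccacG
Eif2s3x: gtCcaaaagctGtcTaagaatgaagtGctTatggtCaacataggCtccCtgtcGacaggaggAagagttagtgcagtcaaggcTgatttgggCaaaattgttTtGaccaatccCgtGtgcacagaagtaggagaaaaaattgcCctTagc
Eif2s3y: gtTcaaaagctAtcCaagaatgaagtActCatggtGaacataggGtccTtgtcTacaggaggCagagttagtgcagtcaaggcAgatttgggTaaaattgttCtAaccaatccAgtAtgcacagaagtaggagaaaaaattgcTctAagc
The eEF1A stretches differ at 28 of 150 bases and the eIF2 gamma stretches at 18 of 150. Over the whole aligned coding sequence, *Eef1a1* and *Eef1a2* were 80.6% identical with no identical run longer than 23 bases, and *Eif2s3x* and *Eif2s3y* were 86.3% identical with no run longer than 34 bases. *Eif3j1* and *Eif3j2* were of another kind. Their aligned coding bases were 100% identical over 783 bases, with a longest run of 781 interrupted only by a gap. Outside the *Eif3j* genes, *Eef1a1*, *Eef1g*, *Eif2s3x* and *Eif4e* each had an annotated processed pseudogene at least 98% identical over more than 400 bases, and *Eif4ebp3* shared its transcript with another annotated gene, so their counts are uncertain to that extent. The intervals of 27 of the rows also overlap another annotated gene, and no source used here states that counting used the strand.

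The libraries held 25425981 to 29747684 counts each, and the factors took 1.12% to 1.27% of them. Levels below are in CPM (counts per 1e6 counts of a library, with library sizes scaled by trimmed means, TMM), except where genes are compared with each other, for which the authors' length-normalized TPM values were used. *Mybpc2* was 4964 to 7393 CPM in WT and 3.85 to 38.3 CPM in C2-/-, as the labels have it. The muscle fibre genes *Acta1* and *Myh4* were abundant in all libraries, at means of 57886 and 45248 CPM in WT. Of the 61 factors, 60 passed the filter on low counts. The exception was *Eif4e1b*, an eIF4E of the oocyte, which reached at most 0.04 CPM in WT and had no count in C2-/-, below the 0.101 to 0.118 CPM that 3 counts are worth here. Since the samples are whole muscle, fewer cells of a type and less RNA per cell cannot be told apart.

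The 60 tested factors spanned several orders of magnitude per length, from *Eif5a2* with a mean of 0.28 TPM to *Eef1a2* with 2187 TPM. *Eef1a2* alone made up 22.5% of the summed TPM of the factors, and with *Eef2*, the translocase, at 1088 TPM it came to 33.6%. Next were *Eif1*, the start-codon fidelity factor, at 729 TPM, *Eif5a*, which eases peptide bond formation at difficult sequences, at 668 TPM, *Eef1g*, a subunit of the eEF1B exchange complex, at 472 TPM, and *Eef1a1* at 307 TPM. Each step of this upper order from *Eef1a2* to *Eef1g*, except that from *Eif1* to *Eif5a*, was wider than the SD within either genotype. *Eif1* and *Eif5a* overlapped between libraries, from 599.6 to 907.6 TPM and from 594.2 to 762.4 TPM. The first 12 genes together made up 70.7% of the summed TPM. Subunits of the eIF3 complex were not at one level, running from 32.7 TPM for *Eif3a*, its largest subunit, to 283 TPM for *Eif3f*.

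**Figure D1:**
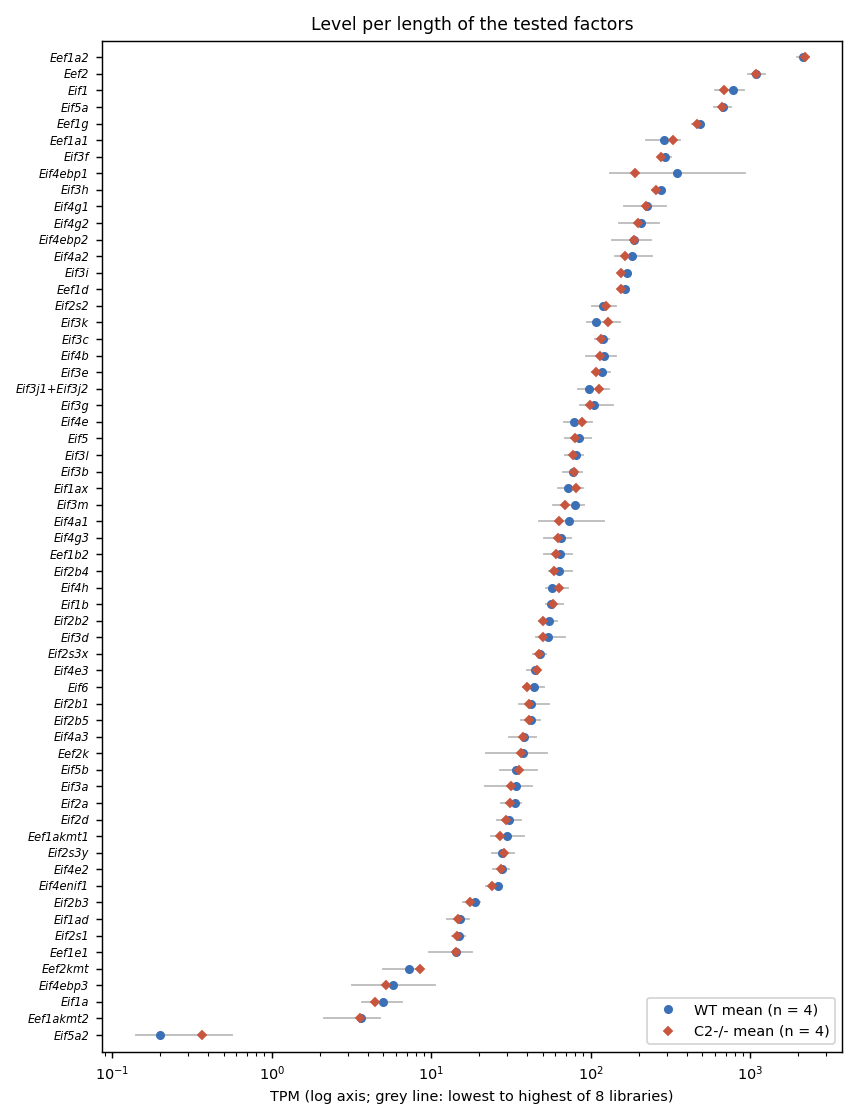
Level of the 60 tested factors in TPM on a log axis, ordered by the mean of all libraries. Circles are WT means and diamonds C2-/- means (n = 4 each), and grey lines run from the lowest to the highest library. *Eef1a2* stands highest at 2187 TPM and *Eif5a2* lowest at 0.28 TPM, and *Eif4ebp1* has a wide line, from 131.6 to 922 TPM.

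No factor differed between C2-/- and WT at an adjusted p under 0.05 (quasi-likelihood test of edgeR, p-values adjusted by Benjamini and Hochberg over 12541 genes), a call made for 0.0239% of all tested genes (3 genes). None had an unadjusted p under 0.05 in either direction either, against 3.37% of all tested genes that were higher in C2-/- and 1.9% that were lower at that level. The smallest unadjusted p was 0.0517 for *Eif3m* (adjusted p = 0.945). DESeq2 also called no factor at an adjusted p under 0.05. It gave 1 factor, *Eif3m*, an unadjusted p under 0.05 on the lower side, against 2.14% of all tested genes in that fit. The 95% interval of the fold change stayed within 1.5-fold in either direction for 48 of the 60 factors and within 2-fold for 57. These counts moved with single mice. Without WT replicate 2, *Eif3k* and *Eef1a1* had an unadjusted p under 0.05 on the higher side, where 4.04% of all tested genes had one in that fit. Without WT replicate 3, 4 factors (*Eif3m*, *Eif4ebp1*, *Eif3e* and *Eif1*) had one on the lower side, against 3.17% of all tested genes. *Eif3m* alone had one without C2-/- replicate 3, against 1.52% of all tested genes. The adjusted p of every factor stayed at or above 0.05 in each of these fits. The 3 whose intervals reached past 2-fold were *Eif4ebp1*, *Eif4ebp3* and *Eif5a2*.

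The factors were, by small amounts, mostly on the lower side in C2-/-. Of the 60, 52 had a log2 fold change below 0, against 54.3% of all tested genes, and 8 had one above 0. The median log2 fold change was -0.13 (median SE 0.14) over the factors and -0.02 (median SE 0.18) over all tested genes, and 47 factors lay within 0.2 of 0. The count of lower factors depends on scaling, and so does that of all genes. By group means of log2 values, 41 of 60 factors (68.3%) were lower in CPM without TMM factors, against 39% of all genes. In TPM 40 of 60 (66.7%) were, against 36.2% of all genes. The median difference was -0.059 for factors and 0.045 for all genes without TMM factors, and -0.046 and 0.054 in TPM. In each scaling the lower share was larger for the factors than for all genes. The count depends also on 1 mouse. Without WT replicate 2, 38 of 60 factors were lower, against 50.5% of all genes, and the median became -0.04. By role, 4 of 7 factors grouped with eIF1, eIF1A and eIF5 were then lower. So were 4 of 6 of the eIF2 group, 4 of 5 of eIF2B and 8 of 13 of eIF3. In the cap-binding group 6 of 11 were lower, as were 2 of 4 inhibitors of eIF4E and 1 of 3 genes of eIF5A and eIF6. The elongation groups kept the counts they had with all mice. These were 5 of 6 eEF1 genes, 2 of 2 for eEF2 and its kinase, and 2 of 3 methyltransferases named after eEF1A and eEF2.

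**Figure D2:**
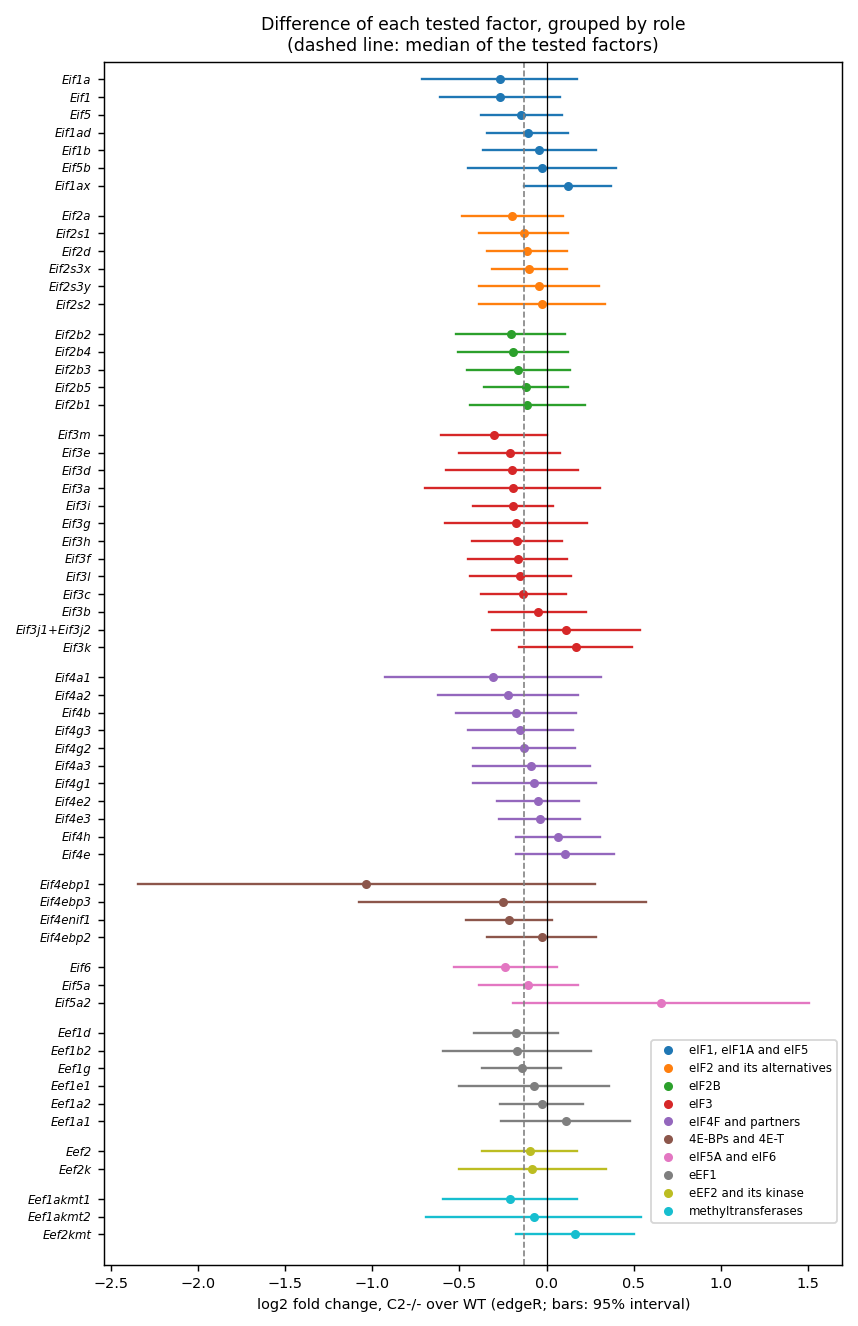
Log2 fold change of C2-/- over WT for each tested factor, with its 95% interval, grouped and coloured by role. The dashed line is the median of the factors, -0.13. Every interval includes 0, and that of *Eif4ebp1* is the widest.

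WT replicate 2 stood apart from the other 7 libraries in this gene group. It was the highest of the 8 libraries for 37 of the 60 factors (61.7%), while it was the highest for 27.5% of all tested genes. That mouse was thus also unlike the others beyond the factors, since each other library was highest for 6.57% to 12.6% of all tested genes. Its factors lay a median of 0.33 above the median library on the log2 scale. Over all genes this median was -0.006 to 0.004 in every library after scaling, so it cannot show how usual a library was. WT replicate 4 was the next most often highest, for 9 factors. At the other end, C2-/- replicate 4 was the lowest library for 20 of the 60. The factors named in this paragraph and the next for their level in WT replicate 2, apart from the members of related pairs, were picked once their values were known.

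The factor that stood out most in that mouse was *Eif4ebp1*, which codes for 4E-BP1, the inhibitor that holds eIF4E until mTORC1 phosphorylates it. *Eif4ebp1* was at 83.4, 517, 61.0 and 94.5 CPM in WT replicates 1 to 4 and at 105, 93.8, 90.4 and 79.8 CPM in C2-/- replicates 1 to 4. WT replicate 2 was thus 5.95 times the mean of the other 7 mice, which lay within 61.0 to 105 CPM, and without it the groups overlapped closely. The log2 fold change of C2-/- over WT was -1.03 (SE 0.59, adjusted p = 0.968) with all mice and 0.22 without that mouse. *Eif4a1*, the common form of the eIF4A helicase, was at 135 CPM in WT replicate 2 and at 49.1 to 70.2 CPM in the others. *Eif4ebp3* and *Eif4a2*, the helicase form that predominates in muscle, were 2.50 and 1.60 times the mean of the other 7 in the same mouse. *Eif3g* and *Eif3d*, eIF3 subunits that bind RNA and the cap, were 1.62 and 1.58 times it. Not every factor followed. *Eif4g1*, the main eIF4G scaffold, was lowest in WT replicate 2 at 529 CPM, and *Eif4g2*, a scaffold that lacks the eIF4E site, was lowest there as well at 710.5 CPM, as was *Eef2k*, the kinase that inactivates eEF2, at 62.4 CPM.

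Some other genes of these pathways were high in the same mouse, and those named below were picked once their values were known. *Mknk2*, a kinase of eIF4E, was at 2087 CPM in WT replicate 2 and at 575 to 804 CPM in the others. *Atf4*, the transcription factor translated when eIF2 is phosphorylated, was at 339 CPM against 139 to 192 CPM, and *Ppp1r15a*, which codes for the phosphatase subunit acting on eIF2, was at 174 CPM against 32.7 to 67.6 CPM. The summed level of the genes listed for ribosomal proteins was also highest there, at 20286 CPM against 12314 to 15978 CPM. The summed fibroblast markers were lowest there, at 291 CPM. Not all genes of these pathways were high in that mouse. *Mtor* and *Rptor*, genes of mTORC1, were lowest there, at 41.2 and 27.5 CPM. The eIF2 kinase genes *Eif2ak2* and *Eif2ak4* were lowest there too, at 2.52 and 4.09 CPM. *Ddit3*, grouped with *Atf4*, was at 6.38 CPM there, within the 4.65 to 12.5 CPM of the others. *Fos*, an immediate early gene, was at 70.9 CPM in WT replicate 2, but higher in WT replicate 4 (245 CPM) and C2-/- replicate 2 (123 CPM). The part of any of these in the factor levels was not tested.

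**Figure D3:**
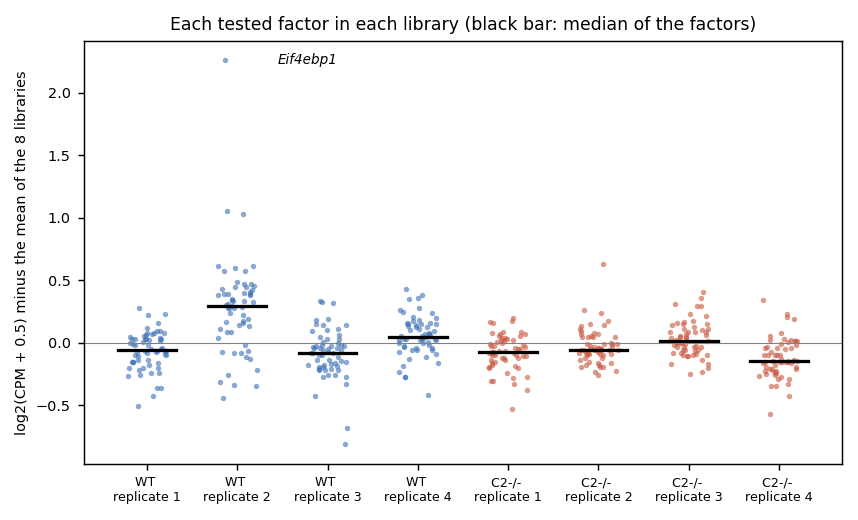
Each tested factor in each library, as log2(CPM + 0.5) minus its mean over the 8 libraries, with WT in blue and C2-/- in red. The black bars are the medians of the factors, highest in WT replicate 2 at 0.30 and lowest in C2-/- replicate 4 at -0.14, and the labelled point is *Eif4ebp1*.

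Among the 7 factors grouped with eIF1, eIF1A and eIF5, 6 were on the lower side and 1, *Eif1ax*, on the higher, and none passed the test. Their log2 fold changes lay between -0.27 and 0.12 with a median of -0.11. *Eif1* was at 555, 665, 411 and 475 CPM in WT and at 471, 456, 448 and 375 CPM in C2-/-. WT replicate 3 lay inside the C2-/- range, so the groups overlapped, and the log2 fold change was -0.27 (SE 0.15, adjusted p = 0.968).

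All 6 genes of eIF2 and of its alternatives were on the lower side by at most 0.20 on the log2 scale, with none past the test. *Eif2s2* and *Eif2s3y* turned to the higher side without WT replicate 2 and without C2-/- replicate 4, leaving 4 of 6. *Eif2s2*, the beta subunit and the most abundant of them by CPM, was at 157, 217, 137 and 158 CPM in WT and at 174, 169, 183 and 130.1 CPM in C2-/- (log2 fold change -0.03, SE 0.16). *Eif2a*, a protein separate from eIF2 that can also bring initiator tRNA to the ribosome, had the smallest p of the group (log2 fold change -0.20, SE 0.13, adjusted p = 0.968). The 5 subunits of eIF2B, the exchange factor that reloads eIF2 with GTP, had fold changes between -0.21 (*Eif2b2*) and -0.11 on the log2 scale and a median of -0.16. Their summed level was 197 to 272 CPM in WT and 194 to 212 CPM in C2-/-, with WT replicate 2 highest. *Eif2b4*, the regulatory subunit with the highest mean CPM of the complex, was at 79.6 CPM in that mouse and at 49.0 to 58.5 CPM in the other 7.

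The eIF3 complex, which coats the small subunit, had 11 of 13 factors on the lower side, with a median of -0.17. *Eif3m* was at 48.7, 64.5, 45.5 and 52.6 CPM in WT and at 38.2, 46.3, 47.2 and 39.6 CPM in C2-/-. Its groups overlapped by WT replicate 3, and its log2 fold change was -0.30 (SE 0.14, adjusted p = 0.945). *Eif3i*, a subunit with a propeller fold, was at 97.6, 113, 90.1 and 96.2 CPM in WT and at 87.7, 87.2, 87.6 and 83.8 CPM in C2-/-. Here the groups did not overlap, although their nearest mice were at 90.1 and 87.7 CPM, and the log2 fold change was -0.20 (SE 0.10, adjusted p = 0.968). *Eif3f*, the most abundant subunit per length and by CPM, had a log2 fold change of -0.16 (SE 0.13). The subunit furthest on the higher side was *Eif3k*, named for that value, at 49.9, 59.1, 41.7 and 41.7 CPM in WT and at 58.0, 60.9, 47.0 and 50.0 CPM in C2-/- (log2 fold change 0.17, SE 0.15). Its groups overlapped, since WT replicate 2 was above 3 of the 4 C2-/- mice.

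Groups that did not overlap were found for 2 of the 60 factors, both lower in C2-/-, where 1.35% of all tested genes were lower without overlap. The second was *Eif4enif1*, which codes for 4E-T, a binder of eIF4E that carries it into the nucleus and into P-bodies. *Eif4enif1* was at 53.2, 62.6, 50.5 and 51.5 CPM in WT and at 45.3, 49.5, 43.9 and 48.9 CPM in C2-/-. The lowest WT mouse and the highest C2-/- mouse were thus 50.5 and 49.5 CPM, and the log2 fold change was -0.22 (SE 0.11, adjusted p = 0.968). No factor was higher in C2-/- without overlap, against 2.01% of all tested genes. With 3 against 4 mice, groups stay apart more often for any gene. The lower count was 5 without WT replicate 1, 8 without WT replicate 3 and 4 without C2-/- replicate 3, where 2.77%, 3.39% and 2.54% of all tested genes were lower without overlap. In CPM without TMM factors it was 0, so that neither *Eif3i* nor *Eif4enif1* kept its groups apart.

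The *Eif3j* genes, whose protein stands loosely on eIF3 near the decoding site, need a separate description. Their summed level was 117, 182, 101 and 129 CPM in WT and 142, 152, 166 and 112 CPM in C2-/-, with overlapping groups (log2 fold change 0.11, SE 0.19, adjusted p = 0.984). The division of these counts was unlike in the genotypes. *Eif3j1* was at 1.08, 3.21, 1.27 and 2.46 CPM in WT and at 128, 86.2, 91.7 and 67.2 CPM in C2-/-, and *Eif3j2* was at 116, 179, 99.3 and 126 CPM in WT and at 13.9, 65.8, 74.1 and 44.3 CPM in C2-/-. *Eif3j1* thus held 0.92% to 1.91% of the summed counts in WT mice, whereas it held 90.2% in C2-/- replicate 1 and 55.3% to 60.2% in the other 3 C2-/- mice. The division was known from an earlier analysis of these libraries and is given as a description. The coding bases of both genes are the same, and their transcripts were 99.4% identical over 2379 aligned bases. From these counts, a change in which gene was transcribed and a change in where reads were assigned cannot be told apart.

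**Figure D4:**
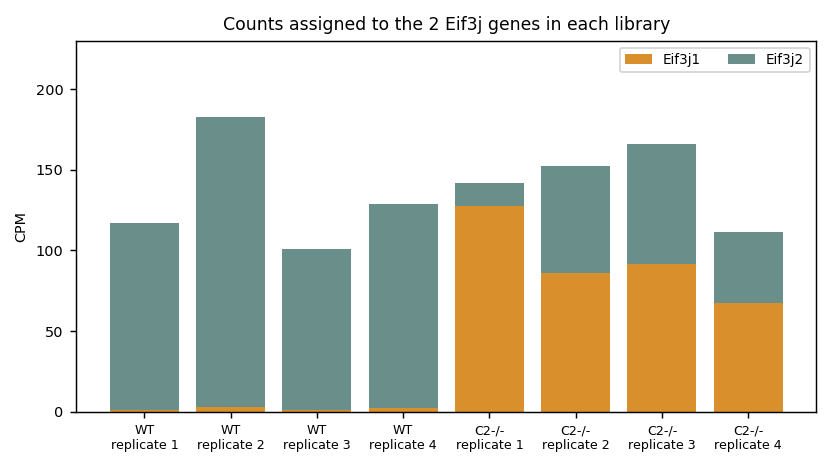
Counts assigned to *Eif3j1* and *Eif3j2* in each library in CPM, stacked so that the bar height is their sum. The sums lie between 101 and 182 CPM in both genotypes, while *Eif3j1* is hardly visible in WT and is the larger part in every C2-/- library.

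Cap-binding factors and their partners had 9 of 11 tested members on the lower side, with a median of -0.09, log2 fold changes from -0.31 (*Eif4a1*) to 0.11 (*Eif4e*) and none past the test. *Eif4g2* had the highest CPM of this group, at 866, 710.5, 1058 and 937 CPM in WT and at 773, 825, 794 and 869 CPM in C2-/-. Its mean was 0.91-fold of WT (95% interval 0.75 to 1.12), with WT replicate 2 below and WT replicate 3 above all other mice. *Eif4e*, the cap-binding protein itself, lay on the higher side, at 88.5, 80.0, 84.8 and 86.2 CPM in WT and 98.5, 83.4, 107 and 75.9 CPM in C2-/-, so that the C2-/- mice lay on both sides of the WT range (log2 fold change 0.11, SE 0.13). Of the inhibitors, *Eif4ebp2*, the 4E-BP with the highest CPM, was at 478, 457, 589 and 637 CPM in WT and 468, 528, 509 and 613 CPM in C2-/-, with a fold of 0.98 (95% interval 0.79 to 1.22).

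Of the elongation factors, *Eef1a2* was the steadiest. It was at 2239, 2441, 2355 and 2597 CPM in WT and at 2534, 2239, 2440.1 and 2232 CPM in C2-/-, a coefficient of variation of 5.94% over the 8 mice, against a median of 14.3% over the factors. Its fold was 0.98, and its 95% interval ran from 0.83 to 1.16. *Eef1a1* was at 273, 378, 257 and 216 CPM in WT and at 322, 321, 310.1 and 259 CPM in C2-/- (log2 fold change 0.11, SE 0.17). Without WT replicate 2 that difference was 0.29, with an unadjusted p under 0.05 but an adjusted p of 0.807. *Eef1d*, an exchange subunit, had the smallest p of the 6 eEF1 genes, with groups that overlapped and a log2 fold change of -0.18 (SE 0.11). *Eef2* was at 1846, 1996, 1562 and 2137 CPM in WT and at 1671, 1803, 1880 and 1696 CPM in C2-/-, and its 95% interval ran from 0.77- to 1.13-fold. Both *Eef2* and its kinase *Eef2k* lay on the lower side, by 0.10 and 0.08 on the log2 scale. Of the 3 methyltransferases named after these factors, 2 were on the lower side and *Eef2kmt* on the higher, by 0.16. *Eef1akmt1* lay at 10.7 to 16.8 CPM in WT and at 10.4 to 14.6 CPM in C2-/- (log2 fold change -0.21, SE 0.17).

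*Eif5a*, the hypusine-bearing factor, was at 405, 531, 369 and 439 CPM in WT and at 417, 409, 373 and 424 CPM in C2-/- (log2 fold change -0.10, SE 0.13). Its relative *Eif5a2* was at 0.42, 0.44, 0.71 and 0.65 CPM in WT and at 0.53, 1.34, 0.64 and 1.01 CPM in C2-/-. These levels are only a few times the value of 3 counts, and the fold of 1.57 had a 95% interval from 0.87 to 2.84. *Eif6*, which keeps the large ribosomal subunit from joining too early, was at 34.2, 44.9, 30.5 and 33.2 CPM in WT and at 30.6, 29.7, 29.1 and 31.8 CPM in C2-/- (log2 fold change -0.24, SE 0.13, adjusted p = 0.968).

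The balance within related pairs was compared as the log2 ratio of CPM in each mouse, with a two-sided exact permutation test of 4 against 4 mice, whose smallest possible p is 0.0286. The difference between genotypes passed the test for none of the 7 ratios (Benjamini-Hochberg adjusted p = 0.971 for each by the exact test). After adjustment over the 7 ratios, none could have passed unless most of them stood at that smallest p. The test could therefore not detect a shift in a single pair or in a few pairs. Per length, *Eef1a2* was 7.79 ± 2.01 times *Eef1a1* in WT and 6.82 ± 0.588 times in C2-/- (SD, n = 4), so the muscle form predominated in every mouse, from 5.62 to 10.4 times. *Eif4a2* was 2.64 ± 0.656 times *Eif4a1* in WT and 2.57 ± 0.217 times in C2-/-. The Y-linked *Eif2s3y* reached 0.580 ± 0.0908 of the X-linked *Eif2s3x* in WT and 0.607 ± 0.0893 in C2-/-. *Eif4g3* was 0.301 ± 0.0673 of *Eif4g1* in WT and 0.278 ± 0.0211 in C2-/-, and *Eif4e3*, an eIF4E that binds the cap in a different way, was 0.571 ± 0.0695 of *Eif4e* in WT and 0.527 ± 0.0842 in C2-/-. The pair with an uneven group was *Eif4ebp1* to *Eif4ebp2*, at 6.79 in WT replicate 2 and between 0.550 and 1.32 in all others. The widest difference of means was in *Eif5a2* to *Eif5a*, 0.69 on the log2 scale (p = 0.143 before adjustment by the exact permutation test).

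**Figure D5:**
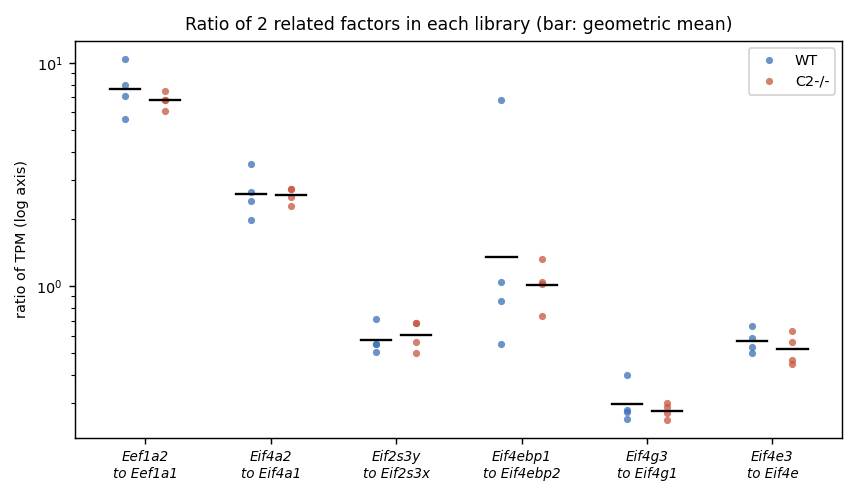
Ratio of TPM of related factors in each library on a log axis, with WT in blue and C2-/- in red and bars at the geometric means. The *Eef1a2* to *Eef1a1* ratio lies between 5.62 and 10.4 in all mice, and the *Eif4ebp1* to *Eif4ebp2* ratio is 6.79 in 1 WT mouse.

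Other genes of the pathway were counted from lists. Over all tested genes, 3.37% were higher and 1.9% lower in C2-/- at an unadjusted p under 0.05, and 54.3% were on the lower side at any p. Of 15 tested factors of release, recycling and the poly(A) tail, 12 were on the lower side and none had an unadjusted p under 0.05. Of 9 enzymes that make hypusine and diphthamide, the modified residues of eIF5A and eEF2, 1 had an unadjusted p under 0.05, *Dph6*, at a mean of 5.45 CPM in WT and 4.03 CPM in C2-/- (log2 fold change -0.44, SE 0.19, adjusted p = 0.921). Of 14 genes of the eIF2 kinases and the ATF4 arm, and of 10 mitochondrial translation factors, none had an unadjusted p under 0.05. In the list of mTORC1 and its outputs, 1 of 14 did. This was *Deptor*, an inhibitor of mTOR, at 22.9, 16.3, 25.8 and 28.7 CPM in WT and at 51.5, 32.8, 43.1 and 73.0 CPM in C2-/-. The groups did not overlap, and the log2 fold change was 1.10 (SE 0.25, adjusted p = 0.581 by edgeR), so it did not pass. The list of cytosolic ribosomal proteins included *Rpl34-ps1* and *Rpl31-ps12*, whose symbols mark pseudogenes. Of its 84 tested genes, 81 were on the lower side, with a median of -0.19, against 54.3% of all tested genes. Without WT replicate 2, 50 of 84 were, with a median of -0.02. With all 8 mice, the 1 with an unadjusted p under 0.05 was *Rpl29*, at 1.81 to 6.35 CPM in WT and at 124, 128, 3.48 and 118 CPM in C2-/- (adjusted p = 0.335), where C2-/- replicate 3 lay within the WT range. Beside these counts, all 5 fibroblast markers were on the higher side in C2-/-, 4 of them without overlap (2.01% of all tested genes were). Their summed level was 291 to 426 CPM in WT and 467 to 644 CPM in C2-/-. Of the 5, 3 had an unadjusted p under 0.05 by edgeR (*Col1a1*, *Col3a1* and *Dcn*), against 3.37% of all tested genes on the higher side. None of the 5 had an adjusted p under 0.05 by edgeR, and the smallest was 0.616, for *Col1a1*. Their median log2 fold change was 0.75 with all mice and 0.48 without WT replicate 2, with all 5 still on the higher side. Among the other markers, *Myh7*, a slow myosin heavy chain, had an unadjusted p of edgeR under 0.05 on the lower side, at 20.9 CPM in WT replicate 4 and at 0.36 to 2.62 CPM in the other WT mice. Without that mouse its log2 fold change went from -2.47 to -0.51, and its unadjusted p was no longer under 0.05. On the higher side *Tnmd*, a tendon gene, had one, and none of the endothelial, macrophage, adipocyte, blood, Schwann cell, satellite cell or immediate early genes had one. The part of these differences in the factor levels was not tested.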

How the data were processed

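RNA from the TA of 4 WT and 4 C2-/- mice was enriched for poly(A) and sequenced, with 1 library per mouse, and groups followed the labels. A growth label gives a younger age, but the extraction protocol and the age label give 22 months. The authors' alignment to GRCm38.p6 used HISAT, and their counting is given as featureCounts in the methods, while the submitters' processing notes also name Bowtie2 and DESeq2. The deposited values were treated as estimated counts (with 5.5% to 6.53% of values not whole) and were rounded to whole numbers. The deposited TPM values, normalized by the authors for length, were used between genes, in ratios and as an alternative scaling. The 8 FPKM columns were not used, and neither were the deposited fold changes, p-values and q-values of the authors' own comparison. The table has 16687 rows, of which 16686 carry a gene identifier, and 25 symbols that were duplicated or read as dates were replaced through their identifiers.

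Counts were fitted with edgeR 4.0.16 (R 4.3.3) by the quasi-likelihood test with TMM factors (0.929 to 1.03) and its default filter on low counts, and p-values were adjusted over all tested genes. Fold changes are C2-/- over WT. The value of 3 counts (0.101 to 0.118 CPM) covers counting error only. Alternatives were limma 3.58.1 with voom, DESeq2 1.42.0, other filters and size factors, and each library left out. The fits were first tested on simulated data. Transcripts of the members were compared with blastn 2.17.0. The members and gene lists were chosen with earlier results of these data known. The naming rule took, in each role, the member with the highest CPM and the one with the smallest p. It also took members of the compared pairs, both Eif3j genes, members below the filter or without overlap, and up to 2 genes of each other list. Genes outside this rule were named as well, such as those picked for their level in WT replicate 2, *Eif3k* and flagged factors. Some of the other lists therefore have more than 2 named genes.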

Additional observations from a re-analysis of the deposited data

Results flagged for a closer look

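Among 120 groups of 4 libraries (60 factors in each genotype), 9 held a mouse whose gap to the nearest of the others was over 0.829 of the whole range of the group (Dixon's limit). Chance gives such a gap in about 1 of 20 groups. Of the 9, 3 were WT replicate 2. *Eif4ebp1* was at 516.8 CPM there against 61.0 to 94.5 CPM in the other WT mice, *Eif3g* at 84.6 CPM against 49.4 to 54.5 CPM, and *Eif2b4* at 79.6 CPM against 54.1 to 58.4 CPM. WT replicate 1 was low for *Eif4g3*, at 172.6 CPM against 225.6 to 233.9 CPM. In C2-/- mice, replicate 2 was high for *Eef1akmt1* at 14.6 CPM against 10.4 to 10.9 CPM, and replicate 3 was high for *Eif2s1*, the alpha subunit of eIF2, at 25.4 CPM against 23.5 to 23.7 CPM. Replicate 4 was low for *Eef1d* at 78.8 CPM against 83.8 to 84.8 CPM and for *Eif3i* at 83.8 CPM against 87.2 to 87.7 CPM. Replicate 1 was low for *Eif4g1* at 574.4 CPM against 666.8 to 679.3 CPM. The other factors stood within the limit in both genotypes.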

How the results depend on the processing

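No factor was called at an adjusted p under 0.05 under any alternative with the Eif3j genes summed, and the median log2 fold change of the factors stayed below 0, from -0.17 to -0.04 with 1 library left out. With *Eif3j1* and *Eif3j2* kept as 2 rows, 1 was called (*Eif3j1*). In that fit 1 factor had an unadjusted p under 0.05 on the higher side and 1 on the lower (*Eif3j2*). Of all tested genes, 3.38% and 1.91% had one there. These counts restate a division known beforehand and support nothing. DESeq2 gave 1 lower factor an unadjusted p under 0.05, against 2.14% of all tested genes. With 1 library left out, the count at an unadjusted p under 0.05 ran from 0 to 2 higher and from 0 to 4 lower, and the count of lower factors without overlap from 2 to 8. That count was 0 in CPM without TMM factors, a setting chosen after seeing the data, as were the counts without overlap and of lower factors under the other settings. The numbers of lower factors ran from 38 to 52 with 1 library left out. The labels number the mice 1 to 4 in both genotypes, but the deviations of same-numbered mice correlated at 0.36, 0.07, -0.07 and 0.03, and 1 of 4 mice correlated best with its own number, so that the numbers were not treated as pairs. With the replicate block, 0 factors were called.

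With all mice, the differences of the log2 ratio that changed sign were smaller than the SD in WT. For *Eif4ebp1* to *Eif4ebp2* that SD, 1.54, holds WT replicate 2 at 0.18 and the other WT mice at -3.27 to -2.52. The SD in C2-/- was 0.32, below the size of that difference (-0.43). *Eif4a2* to *Eif4a1* was -0.0114 in TPM and ran from -0.14 to 0.15 with 1 library left out, *Eif4ebp1* to *Eif4ebp2* from -0.82 to 0.33, and *Eif4g3* to *Eif4g1* from -0.18 to 0.0496. Log2 fold changes that changed sign with 1 library left out ran from -0.0622 to 0.0232 for *Eef1a2*, -0.10 to 0.13 for *Eif2s2*, -0.11 to 0.11 for *Eif2s3y*, -0.47 to 0.12 for *Eif4a1*, -0.0756 to 0.0083 for *Eif4e3*, -1.31 to 0.22 for *Eif4ebp1*, -0.11 to 0.0735 for *Eif4ebp2*, -0.17 to 0.04 for *Eif4g1*, -0.17 to 0.0108 for *Eif5a*, -0.19 to 0.0562 for *Eef2k*, -0.28 to 0.0034 for *Eif3d*, -0.25 to 0.0502 for *Eif3g* and -0.47 to 0.29 for *Eif4ebp3*. Leaving out WT replicate 2, and no other library, turned *Eif3d*, *Eif3g*, *Eif4a1*, *Eif4e3*, *Eif4ebp1*, *Eif4ebp3* and *Eif5a*. *Eif2s2* and *Eif2s3y* turned without WT replicate 2 and without C2-/- replicate 4. Of the 60 factors, 21 changed sign with some library left out, 14 of them without WT replicate 2. The cause of these changes was not tested. With 4 mice a group, the intervals of 12 factors reach 1.5-fold. These intervals are for single genes, whereas a call needed a p-value adjusted over 12541 genes. They therefore do not give the size of change that could have been called, for these 12 or for the other factors. *Deptor*, which is not a factor, was not called at a log2 fold change of 1.10 (adjusted p = 0.581 by edgeR). *Eif5a2* is limited by its low counts.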
